A study of Macaca fascicularis with 16 samples.

Results

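The genes described here bind, carry, take up, make or break down retinoids, the vitamin A family. They are the cellular retinoic acid-binding proteins CRABP1 and CRABP2, the blood retinol carrier RBP4, the retinol uptake receptor STRA6, the retinaldehyde dehydrogenases ALDH1A1, ALDH1A2 and ALDH1A3, the retinoic acid receptor RARB and the degrading enzyme CYP26A1. Every probe set whose platform annotation gives 1 of these symbols and no other was taken. That gave 12 probe sets for 8 of the 9 genes, among 24956 probe sets with a single symbol. ALDH1A1 carries no probe set under its symbol in that annotation and was not analysed here. RBP4, ALDH1A2, RARB and CYP26A1 have 2 probe sets each, called the brighter and the dimmer by their mean over all arrays.

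Endometrium came from 16 postmenopausal cynomolgus macaques (Macaca fascicularis), with 1 array per animal, in 4 randomized arms of 4 animals treated for 4 months. Controls received placebo. A second arm ate a diet with 0.25 mg of micronized estradiol in every 1800 kcal. The third arm ate one with 20 mg of tamoxifen, which modulates the estrogen receptor in a tissue-selective way, in every 1800 kcal, and the last arm had both agents at these doses, called the combination here. Ages are not given in the sources used here, and the arrays carry probes for the rhesus macaque. Changes are differences of arm means on the scale log2(signal + 4.80), with standard errors (SE) and adjusted p from limma over 31659 probe sets; a gene is called at an adjusted p under 0.05. Precision is limited by having 4 arrays in each arm.

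Retinol circulates bound to RBP4 and enters cells through STRA6. Alcohol and retinol dehydrogenases oxidise it to retinaldehyde, and the ALDH1A enzymes turn that into retinoic acid. In the cell, retinoic acid binds CRABP1, which is associated with its breakdown, or CRABP2, which hands it to nuclear receptors such as RARB; CYP26A1 oxidises it. RARB and CYP26A1 are both well-known transcriptional targets of retinoic acid. In the uterus, retinoid carriers and enzymes are found in both glands and stroma and vary with hormonal state.

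All 16 arrays had a trimmed mean signal of 250.01, and median signals lay between 58.7 and 70.3. The score of a cell type is the mean log2 deviation of its tested markers from their mean over all arrays. Epithelium markers (9 of 14 tested) scored between -0.65 and -0.63 in the controls and between -0.44 and 0.88 in the treated arms; 4, 3 and 4 of them were called higher with estradiol, tamoxifen and the combination. Their summed signal was 5235 to 5684 in the controls and 6827 to 11807, 6805 to 12830 and 7455 to 9480 in these arms, with KRT7 and CDH1 too dim to be tested. Stroma fibroblast markers (9 of 11 tested) scored between -0.99 and -0.59 in the controls and between -0.029 and 0.62 in the treated arms, with 7, 5 and 5 called higher. Their summed signals were 23526 to 25254 in the controls and 41328 to 48957, 31427 to 41735 and 31892 to 40424 with estradiol, tamoxifen and the combination. Of all probe sets tested, 13.2%, 7.14% and 8.05% were called higher with estradiol, tamoxifen and the combination, and 12.3%, 6.17% and 7.79% lower. The marker counts stand beside these shares without a test. Some markers of other cells were called too. Of 4 tested markers of T and NK cells 0, 3 and 3 were called lower with estradiol, tamoxifen and the combination; their score was 0.24 to 1.03 in the controls, -0.45 to 0.30 with estradiol, -0.33 to -0.075 with tamoxifen and -0.98 to -0.091 with the combination. Of 8 endothelium markers 4, 1 and 1 were called lower, with scores of 0.14 to 0.43 in the controls and -0.55 to 0.38 in the treated arms. Of 3 fat cell markers 1 was called lower with estradiol, and of 3 mesothelium markers 1 was called higher with the combination. Of the squamous epithelium markers 3 of 10 were tested and 0 were called against control, as were 0 of 5 macrophage markers. Smooth muscle markers, 10 of 14 tested, scored -3.55 in estradiol 4 and -0.87 in tamoxifen 1 and at least 0.024 on the other 14 arrays. Their summed signal was 8352 in estradiol 4, 29327 in tamoxifen 1 and 47516 to 68537 on the other 14, so muscle signal was high on most arrays. The log2 ratio of 3' to 5' actin signal, a sign of RNA integrity, was 0.76 to 1.02 in the controls. It was 0.41 to 0.83 in the treated arms, where only estradiol 4 reached the range of the controls. The same ratio for GAPDH was 0.086 to 0.22 in the controls and -0.13 to 0.093 in the treated arms. The part of these values in the results below was not tested. In such whole tissue, fewer cells of a type and less RNA per cell cannot be told apart.

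**Figure D1:**
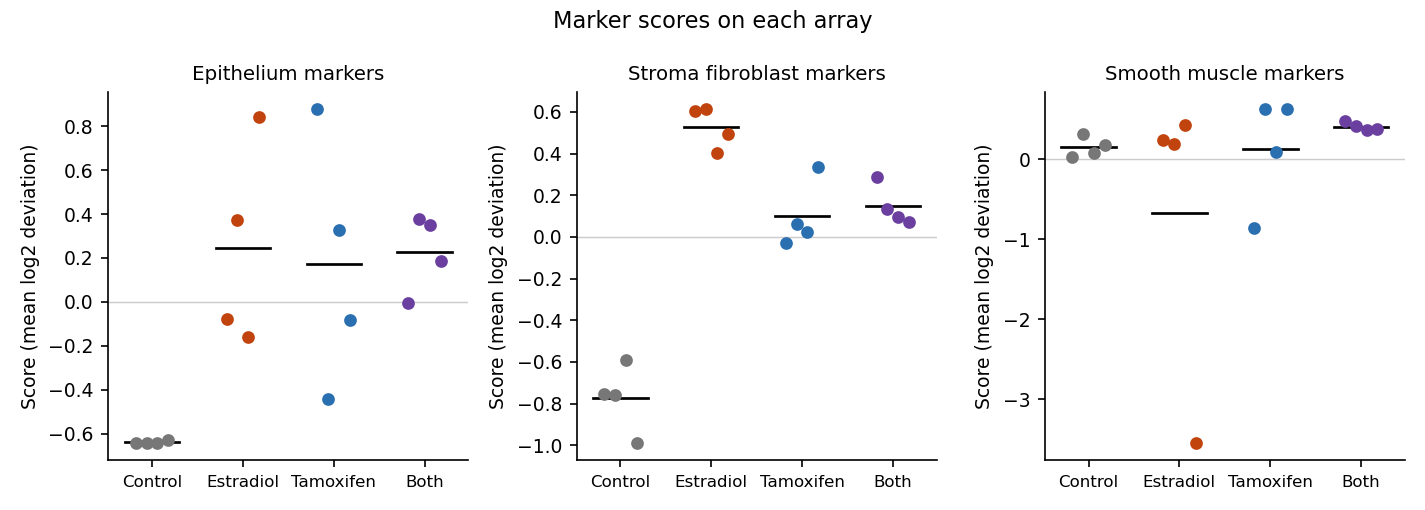
Marker scores (y axis, mean log2 deviation) on each of the 16 arrays (points) by arm (x axis), with the arm mean as a line; Both is the combination. Every treated array lies above all 4 controls for epithelium and stroma, and estradiol 4 and tamoxifen 1 lie lowest for smooth muscle, at -3.55 and -0.87.

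Both cellular retinoic acid-binding protein genes were higher in every treated arm than in the controls, and they had the highest changes of all members with the combination. CRABP1 (probe set MmugDNA.24778.1.S1_at) gave signals of 23.4, 22.3, 19.0 and 28.1 in controls 1 to 4. With estradiol these were 64.8, 263, 73.7 and 39.0. With tamoxifen they were 347, 87.1, 224 and 129, and with the combination 242, 488, 466 and 194. Each of the 12 treated arrays thus lay above each of the 4 controls. The highest control was 1.48 times the lowest, but the control mean of 4.80 on the log2 scale was dim. It lay below 5.36, the lowest overall mean among the probe sets tested. The probe set was thus tested because of its treated arrays, and its folds and separation rest on a dim control level. The estradiol arm spread 6.73-fold because estradiol 2 stood far above the others. CRABP1 rose by 1.69 (SE 0.50, adjusted p = 0.0216) with estradiol, by 2.67 (SE 0.50, adjusted p = 0.00358) with tamoxifen and by 3.55 (SE 0.50, adjusted p = 0.000487) with the combination. These are folds of 3.22, 6.38 and 11.8 on this scale. The estradiol call was lost without estradiol 2 (1.16, adjusted p = 0.0671), without control 3 (1.61, adjusted p = 0.0507) and with a pseudocount of 32 (1.13, adjusted p = 0.0553).

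CRABP2 (probe set MmuSTS.1245.1.S1_at) gave 27.1, 75.3, 48.3 and 46.1 in controls 1 to 4. The estradiol arrays were at 288, 361, 115 and 309. The tamoxifen arrays were at 192, 364, 328 and 571, and those of the combination at 651, 265, 816 and 342. No treated array overlapped the controls. CRABP2 rose by 2.30 (SE 0.43, adjusted p = 0.00142) with estradiol, by 2.74 (SE 0.43, adjusted p = 0.00136) with tamoxifen and by 3.21 (SE 0.43, adjusted p = 0.000358) with the combination. The folds were 4.92, 6.70 and 9.25. All of these calls held in every alternative run. For both genes the arm means rose in the order control, estradiol, tamoxifen, combination. The arms next to each other among the treated ones did not differ beyond their spread, with tamoxifen minus estradiol at 0.99 for CRABP1 and 0.45 for CRABP2 (adjusted p = 0.427 and 0.710).

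The epithelium score, above every control on all treated arrays, was lowest among these on tamoxifen 2, at -0.44, where CRABP1 was at 87.1 and CRABP2 at 364. It was highest on tamoxifen 1, at 0.88, where CRABP1 was at 347 and CRABP2 at 192. The stroma score of the tamoxifen arm was lowest on tamoxifen 1, at -0.029. It was highest on tamoxifen 4, at 0.34, where CRABP1 was at 129 and CRABP2 at 571. With estradiol the stroma score and CRABP2 were both lowest on estradiol 3 and highest on estradiol 2. With the combination the stroma score was highest on combination 1 and CRABP2 on combination 3. The part of epithelium and stroma in these signals was not tested.

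RBP4, made in the liver for the blood but also in other tissues, was higher in all treated arms and had its highest mean with tamoxifen alone. Its brighter probe set (MmugDNA.27239.1.S1_at) gave 146, 201, 541 and 238 in controls 1 to 4. It gave 287, 1537, 853 and 1224 with estradiol and 2394, 1339, 1450 and 1491 with tamoxifen. With the combination the signals were 952, 1686, 1373 and 561. The estradiol arm overlapped the controls, since estradiol 1 lay below control 3; the other treated arms did not. RBP4 rose by 1.71 (SE 0.48, adjusted p = 0.0176) with estradiol, by 2.68 (SE 0.48, adjusted p = 0.00303) with tamoxifen and by 2.07 (SE 0.48, adjusted p = 0.0105) with the combination. The dimmer probe set (MmugDNA.27239.1.S1_s_at) has the same name stem and so is not an independent measure. It gave changes of 1.72, 2.77 and 2.21, all called. In the estradiol comparison the brighter probe set lost its call without estradiol 2 (1.42, adjusted p = 0.0626), without control 1 (1.46, adjusted p = 0.0563) and in a fit of these arms alone (1.71, adjusted p = 0.0548). The dimmer one kept it in every alternative run.

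STRA6, the cell surface receptor that takes retinol from RBP4, was higher with estradiol and was not called in the other comparisons. Its probe set (MmugDNA.19390.1.S1_at) gave 121, 107, 109 and 59.0 in controls 1 to 4 and 320, 360, 230 and 380 with estradiol. With tamoxifen it gave 337, 51.4, 130.0 and 129.5. With the combination it gave 169, 223, 186 and 189. The estradiol arrays lay above all controls, and the tamoxifen arm spread 6.55-fold from its lowest array, tamoxifen 2, to its highest, tamoxifen 1. STRA6 rose by 1.68 (SE 0.39, adjusted p = 0.00562) with estradiol, a fold of 3.20, and this call held in every alternative run. Its difference from control was 0.44 (SE 0.39, 95% interval -0.38 to 1.26, adjusted p = 0.485) with tamoxifen. With the combination it was 0.96 (SE 0.39, 95% interval 0.14 to 1.78, adjusted p = 0.105), although its arrays did not overlap the controls. That last difference passed in a fit of these arms alone (adjusted p = 0.0166) and without both estradiol 4 and tamoxifen 1 (adjusted p = 0.0296). Those 2 arrays are in neither of the arms compared, and leaving them out changed only the shared spread and the adjustment.

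**Figure D2:**
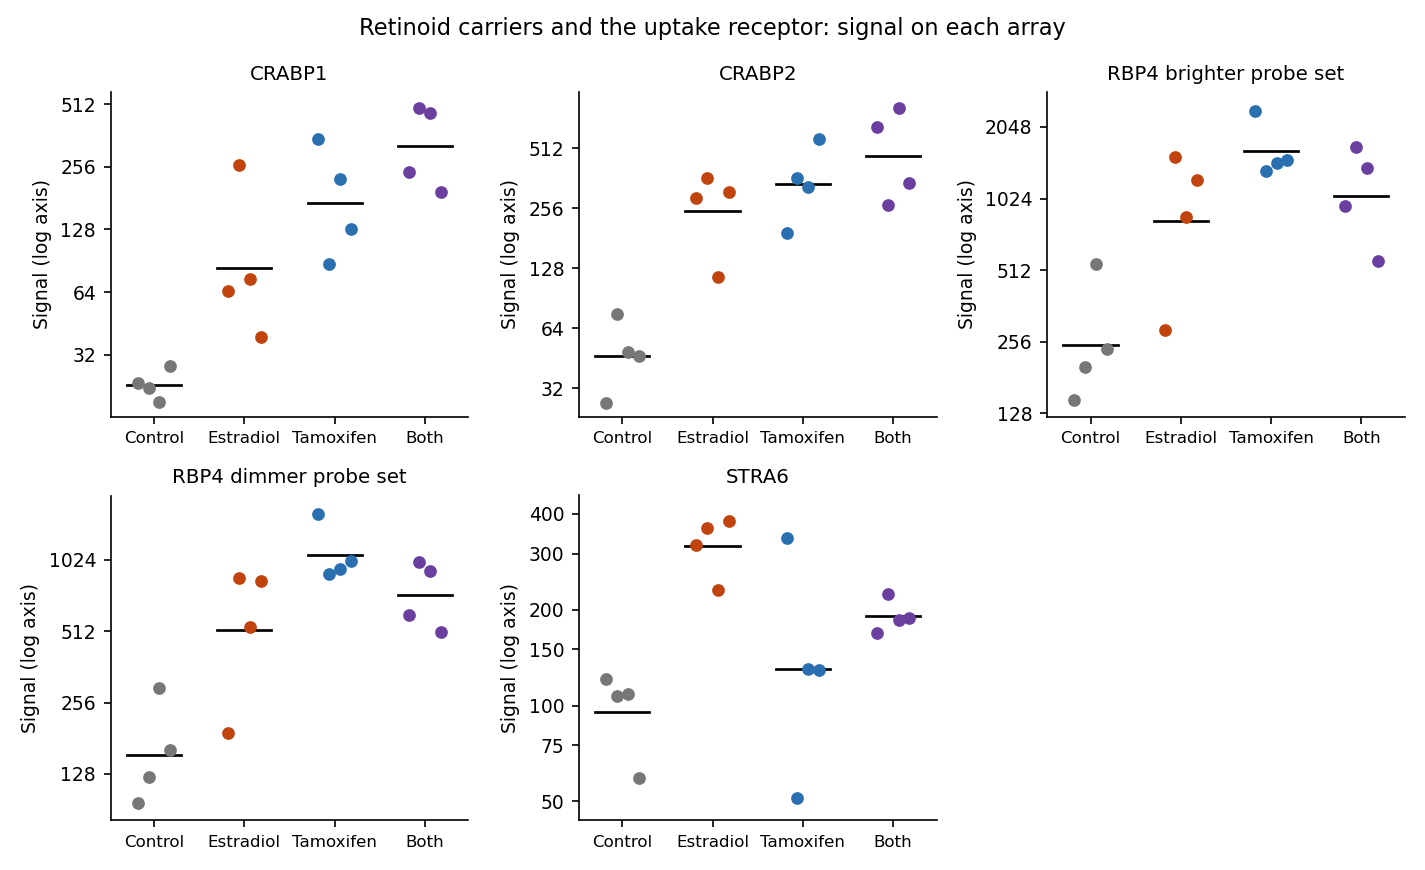
Signal of each array (points, log axis) by arm (x axis) for CRABP1, CRABP2, both RBP4 probe sets and STRA6; lines are geometric means of the 4 arrays. CRABP1 and CRABP2 of every treated array lie above all controls, RBP4 of estradiol 1 lies among the controls, and STRA6 is high on the 4 estradiol arrays and on tamoxifen 1.

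The retinoic acid-making enzymes gave no call against control, and the arm means of both were lower in each treated arm than in the controls. ALDH1A2, the main retinaldehyde dehydrogenase of uterine stroma and of mesothelium, had signals of 955, 1441, 1569 and 681 in controls 1 to 4 on its brighter probe set (MmuSTS.3434.1.S1_at). The combination arrays gave 641, 481, 402 and 913. Estradiol arrays ran from 533 to 1169 and tamoxifen arrays from 498 to 1376. Each treated arm thus overlapped the controls. The difference from control was -0.57 (SE 0.37, 95% interval -1.36 to 0.22) with estradiol, -0.42 (SE 0.37, 95% interval -1.21 to 0.37) with tamoxifen and -0.92 (SE 0.37, 95% interval -1.71 to -0.13, adjusted p = 0.106) with the combination. The dimmer ALDH1A2 probe set (MmugDNA.18238.1.S1_at) gave -0.30, -0.22 and -1.07 (SE 0.38 each), the last with adjusted p = 0.0643. It was at 147, 164, 168 and 69.8 in controls 1 to 4 and at 104, 39.0, 53.9 and 55.6 with the combination. Without control 4, its lowest control, that difference was -1.36 and called (adjusted p = 0.0280), and without combination 1 it was -1.33 (adjusted p = 0.0404).

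ALDH1A3, the retinaldehyde dehydrogenase typical of epithelia (probe set MmuSTS.2795.1.S1_at), gave 1213, 1669, 1650 and 556 in controls 1 to 4. It gave 738, 536, 833 and 2003 with estradiol, 1078, 524, 911 and 507 with tamoxifen, and 624, 488, 577 and 758 with the combination. Estradiol 4, the array with the lowest muscle score and an epithelium score of 0.84, was the highest of all 16. Tamoxifen 1, with the next lowest muscle score and an epithelium score of 0.88, was at 1078. The part of these scores was not tested. The differences from control were -0.37 (SE 0.40, adjusted p = 0.532), -0.70 (SE 0.40, adjusted p = 0.256) and -0.95 (SE 0.40, 95% interval -1.79 to -0.10, adjusted p = 0.118). The combination's difference was -1.30 (adjusted p = 0.0325) without control 4, and it also passed without both estradiol 4 and tamoxifen 1 (-0.95, adjusted p = 0.0445). Those arrays are in neither of the arms compared, so the difference kept its size and only the shared spread and the adjustment changed. Control 4 was the lowest control for ALDH1A3 and for both ALDH1A2 probe sets.

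RARB and CYP26A1, known retinoic acid targets, were not called in any comparison. The brighter RARB probe set (MmuSTS.3105.1.S1_at) gave 206, 418, 287 and 377 in controls 1 to 4, and 140 to 320 over the 12 treated arrays. Its differences from control were -0.38, -0.57 and -0.39 (SE 0.27 each; adjusted p = 0.333, 0.183 and 0.357). The dimmer RARB probe set (MmugDNA.17550.1.S1_at) was tight in the controls, at 242, 210.0, 198 and 228, and the combination arrays, at 126, 151, 192 and 184, all lay below them. Its differences were -0.29, -0.45 and -0.43 (SE 0.19 each), with adjusted p = 0.297, 0.140 and 0.147; without tamoxifen 4 the tamoxifen difference was -0.62 and passed (adjusted p = 0.0457). The 95% intervals of the dimmer probe set ran from -0.71 to 0.12 for estradiol, from -0.86 to -0.03 for tamoxifen and from -0.84 to -0.02 for the combination.

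CYP26A1 was too dim on both probe sets to be tested. The brighter (MmugDNA.36148.1.S1_at) gave 33.8, 24.1, 13.8 and 7.26 in controls 1 to 4, 9.66 to 23.8 with estradiol, 4.15 to 17.9 with tamoxifen and 2.04 to 14.6 with the combination. Its mean lay at the 20.4th percentile of all probe sets, and that of the dimmer (MmuSTS.1898.1.S1_at), with signals from 0.913 to 10.2, at the 5.36th. In a fit with no filter the brighter differed from control by -0.19, -0.56 and -0.70 (SE 0.42 each; adjusted p = 0.840, 0.486 and 0.356), so no change was detectable at this signal.

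**Figure D3:**
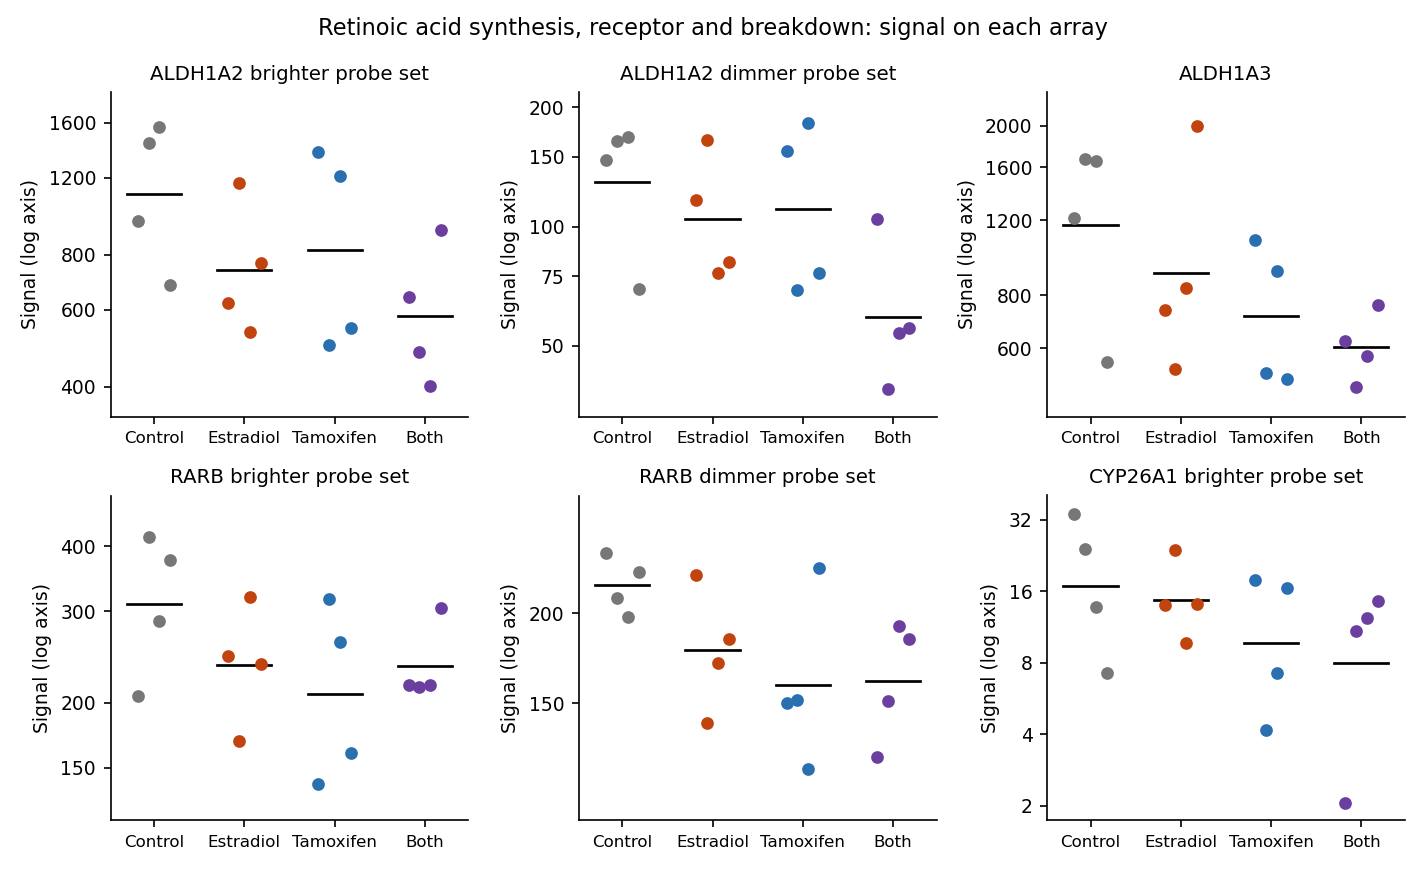
Signal of each array (points, log axis) by arm (x axis) for ALDH1A2 (both probe sets), ALDH1A3, RARB (both probe sets) and the brighter CYP26A1 probe set; lines are geometric means of the 4 arrays. The treated arms overlap the controls in every panel except the combination on the dimmer RARB probe set, and estradiol 4 is the highest array for ALDH1A3, at 2003.

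Of the 10 member probe sets tested, for 7 genes, 5 were called higher with estradiol and 0 lower, where 13.2% of all probe sets tested were called higher and 12.3% lower. With tamoxifen 4 were called higher, beside 7.14% of all, and 0 lower, beside 6.17%. With the combination 4 were called higher, beside 8.05% of all, and 0 lower, beside 7.79%. The calls were CRABP1, CRABP2 and both RBP4 probe sets in each comparison, plus STRA6 with estradiol. Groups without overlap in the higher direction made up 12.4%, 9.02% and 11.7% of all probe sets, and 11.8% lay wholly lower with the combination, as the dimmer RARB set did. The median difference of the 10 was 0.69, 0.11 and 0.28, and that of all probe sets tested -0.018, -0.023 and -0.035. These 3 comparisons share the 4 control arrays and are not independent, nor are the RBP4 probe sets independent of each other. CRABP1 was tested only because of its treated arrays. The members were chosen with earlier results of these data known, so the counts beside these shares do not test the group. Without estradiol 2 the estradiol count was 3, those of CRABP2, STRA6 and the dimmer RBP4 probe set. Without both estradiol 4 and tamoxifen 1, the arrays of low muscle score, the counts were 5, 4 and 6, the 2 added being STRA6 and ALDH1A3 with the combination. Neither array is in the combination or control arm, so these 2 differences kept their size. What changed was the spread shared by all arms and the adjustment of p.

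**Figure D4:**
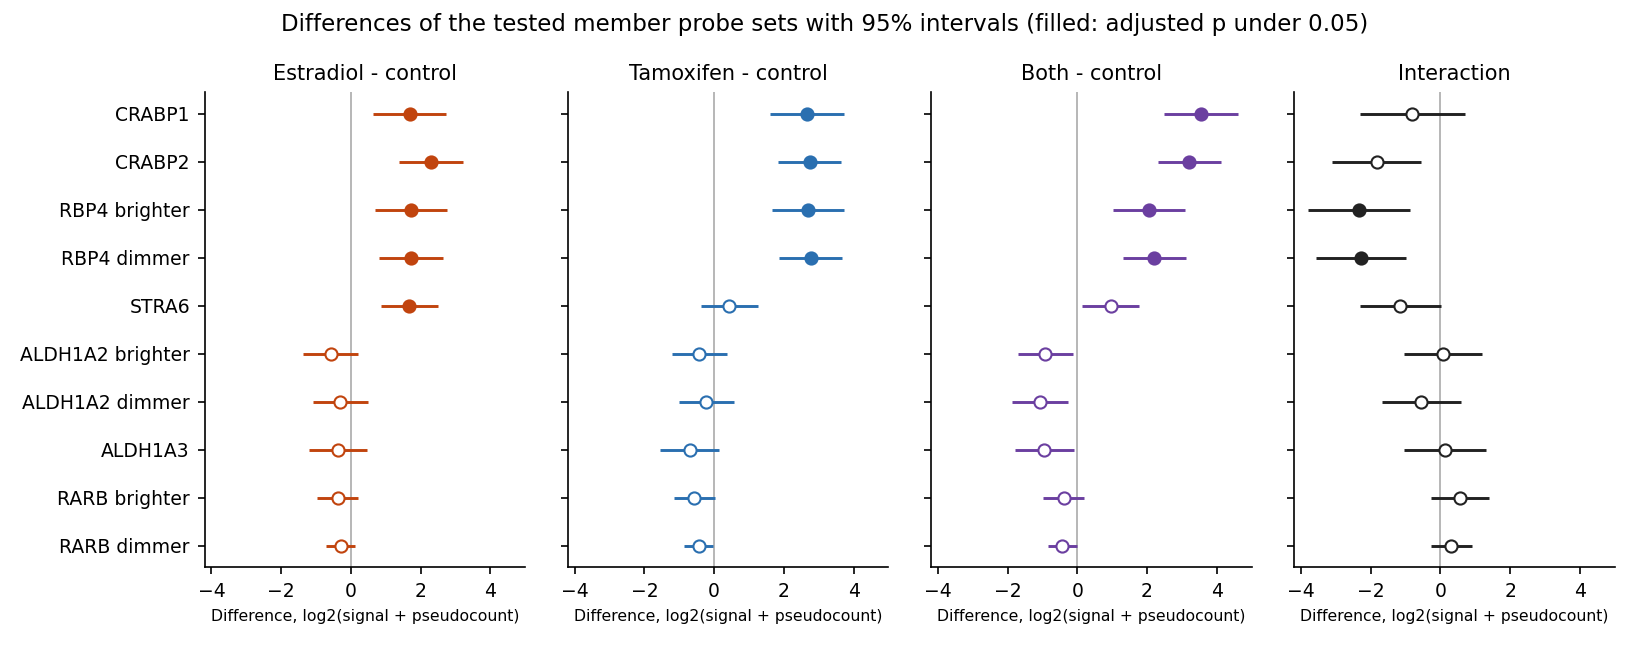
Difference of arm means on the log2 scale (x axis) with its 95% interval for the 10 tested probe sets, for each treated arm minus control and for the interaction; filled points have an adjusted p under 0.05. The carriers CRABP1, CRABP2 and RBP4 lie to the right of 0 in all 3 comparisons with control, and the RBP4 probe sets are the filled ones in the interaction, at -2.33 and -2.28.

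No member was called between treated arms. For tamoxifen against estradiol limma called 0 of the 10 (2 at an unadjusted p under 0.05), beside 0.569% of all probe sets (12.9% at an unadjusted p under 0.05). The nearest were STRA6, at -1.24 (SE 0.39, adjusted p = 0.175), and the dimmer RBP4 probe set, at 1.05 (SE 0.43, adjusted p = 0.304). All tamoxifen arrays of the latter lay above all estradiol arrays, as for 3.17% of all probe sets. Without tamoxifen 1, whose STRA6 signal of 337 was like those of the estradiol arrays, the STRA6 difference was -1.68 and called (adjusted p = 0.0221).

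For the combination against estradiol limma likewise called 0 members (2 at an unadjusted p under 0.05), beside 1.22% of all (15.8% at an unadjusted p under 0.05). CRABP1 was nearest, 1.87 higher with the combination (SE 0.50, 95% interval 0.81 to 2.92, adjusted p = 0.0746); without estradiol 2, the estradiol array with most CRABP1, it was 2.40 higher and called (adjusted p = 0.0237). CRABP2 was 0.91 higher (SE 0.43, adjusted p = 0.315). STRA6 was 0.72 lower on the log2 scale, at -0.72 (SE 0.39, adjusted p = 0.387), with all combination arrays below all estradiol arrays, as for 5.7% of all probe sets. For the combination against tamoxifen limma called 0 members (1 at an unadjusted p under 0.05) and 0% of all probe sets, with 1283 of 31659, 4.05%, at an unadjusted p under 0.05. The 1 member was the dimmer ALDH1A2 probe set, at -0.85 (95% interval -1.65 to -0.05, adjusted p = 1.00). The 95% interval of that difference was -0.17 to 1.94 for CRABP1, -0.44 to 1.37 for CRABP2, -1.65 to 0.41 for the brighter RBP4 probe set and -0.30 to 1.34 for STRA6.

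The interaction is the combination's difference from control less the sum of the differences with each drug alone. It was called and negative for both RBP4 probe sets, 2 of the 10, beside 5.35% of all probe sets called lower. These probe sets belong to 1 gene and are not independent measures. The brighter stood at -2.33 (SE 0.69, 95% interval -3.79 to -0.88, adjusted p = 0.0436) and the dimmer at -2.28 (SE 0.60, 95% interval -3.57 to -0.996, adjusted p = 0.0287). The brighter was 2.07 above control with both drugs, 1.71 with estradiol and 2.68 with tamoxifen, so the change with both lay between those with each alone. In the same comparison 7 of the 9 stroma fibroblast markers and 1 of the 9 epithelium markers were called lower, and their part in the result was not tested. The calls were not stable: the brighter passed in 7 of 23 alternatives, with adjusted p from 0.0146 to 0.120, and the dimmer in 17 of 23, with adjusted p from 0.0080 to 0.0836. Both missed the threshold without any one of control 1, estradiol 2, tamoxifen 1, combination 1 and combination 4. The brighter also missed it without control 2, control 4, estradiol 3, estradiol 4, tamoxifen 3, tamoxifen 4 or combination 3. No member was called higher, beside 4.19% of all. CRABP2 stood at -1.84 (SE 0.60, adjusted p = 0.0662), and was called without estradiol 3 (-2.19, adjusted p = 0.0186) or without tamoxifen 1 (-2.10, adjusted p = 0.0484). STRA6 stood at -1.16 (SE 0.55, adjusted p = 0.195), and was called without tamoxifen 2 (-1.59, adjusted p = 0.0309). CRABP1 stood at -0.80 (SE 0.70, 95% interval -2.30 to 0.69, adjusted p = 0.510). With a replicate block, which the data do not bear out as a pairing, 1 RBP4 probe set was called.

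The members did not rank the arrays of an arm alike. In the estradiol arm, estradiol 2 was the highest for CRABP1, CRABP2, RBP4 and ALDH1A2, and estradiol 4 the highest for STRA6 and ALDH1A3. In the tamoxifen arm, tamoxifen 1 was the highest for CRABP1, RBP4, STRA6 and ALDH1A3 and the lowest for CRABP2. In the combination arm, combination 2 was the highest for CRABP1, RBP4 and STRA6 and the lowest for CRABP2 and ALDH1A3. The 2 binding protein genes thus stood in opposite order on tamoxifen 1 and combination 2.

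The other genes of the pathway were taken from a list of 58, of which 42 were annotated and 33 bright enough to test, each counted by its brightest probe set. Of these 33, 5 were called higher and 6 lower with estradiol, 4 and 3 with tamoxifen, and 5 and 5 with the combination. In either direction 25.5%, 13.3% and 15.8% of all probe sets were called in these comparisons. These shares count every tested probe set, with or without a symbol, and the list counts genes by their brightest one. The units are thus unlike, and the counts were not tested against the shares. The median differences of the list were -0.15, -0.18 and -0.12. The list thus moved in both directions. In the interaction 1 was called higher and 3 lower, beside 4.19% and 5.35% of all probe sets. Between treated arms limma called 0. The shares of all probe sets there were 0.569% for tamoxifen against estradiol, and 1.22% and 0% for the combination against estradiol and tamoxifen.

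Among the 10 genes of retinol storage and oxidation, RDH10, the retinol dehydrogenase that feeds retinoic acid synthesis, rose and ADH7, an alcohol dehydrogenase that also oxidises retinol, fell. RDH10 gave 131, 65.2, 70.9 and 73.2 in controls 1 to 4 and 668, 434, 241 and 159 with estradiol. With tamoxifen it gave 201 to 304, and with the combination 127, 349, 208 and 262, where combination 1 lay below control 1. It rose by 1.93 (SE 0.38, adjusted p = 0.00217) with estradiol, by 1.56 (SE 0.38, adjusted p = 0.0152) with tamoxifen and by 1.39 (SE 0.38, adjusted p = 0.0233) with the combination. Its interaction was -2.10 (SE 0.54, adjusted p = 0.0252). The brightest of its 3 other tested probe sets gave 1.76, 1.27 and 1.38 against control, of which that with tamoxifen was not called (adjusted p = 0.0605). The interaction of that probe set was not called either, at -1.64 (adjusted p = 0.0962). ADH7 gave 1329, 599, 1000 and 1850 in controls 1 to 4, 216 to 358 with tamoxifen and 133 to 530 with the combination. It fell by 1.84 (SE 0.40, adjusted p = 0.00866) with tamoxifen and by 2.19 (SE 0.40, adjusted p = 0.00262) with the combination. With estradiol it stood at -1.06 (SE 0.40, adjusted p = 0.0660). The carotene-cleaving enzyme BCO2 rose by 0.48 with estradiol (SE 0.11, adjusted p = 0.00602), whereas a second probe set for it was at 0.00069. Named after their values were seen, RDH14 fell by 0.62 with estradiol, and DHRS3, which reduces retinaldehyde back to retinol, fell by 0.52 with estradiol and by 0.53 with the combination (adjusted p = 0.0183, 0.0381 and 0.0494).

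Among 9 receptors and partners, the brightest probe sets of the receptors RARA, RARG and RXRA were not called against control, at 0.27, -0.15 and 0.15 with estradiol. The next RARA probe set, however, was called in each comparison with control, at 0.72, 0.44 and 0.45 (adjusted p = 0.00151, 0.0429 and 0.0320), and in the interaction, at -0.70 (adjusted p = 0.0315). The other RARG probe set was called lower with the combination, at -0.61 (adjusted p = 0.0198), where the brightest stood at -0.41 (adjusted p = 0.0663). RXRB, a partner of the retinoic acid receptors, fell by 0.34, 0.34 and 0.28 with estradiol, tamoxifen and the combination (SE 0.091 each; adjusted p = 0.0141, 0.0245 and 0.0495); its other tested probe set was not called, at -0.20, -0.27 and -0.21. The nuclear receptor coactivator NCOA2 fell by 0.50, 0.36 and 0.38 (SE 0.084 each; adjusted p = 0.000779, 0.0119 and 0.00752). NRIP1, a corepressor of several nuclear receptors that is also a known estrogen target, rose by 1.02, 0.69 and 0.65 (SE 0.21 each; adjusted p = 0.00260, 0.0386 and 0.0446). Its next probe set was called with estradiol, at 1.57, and not with tamoxifen or the combination, at 1.14 and 1.24. The interaction was 0.48 for NCOA2 and -1.06 for NRIP1 (adjusted p = 0.0220 and 0.0339). On their next probe sets it was 0.73 and -1.47, called for NCOA2 and not for NRIP1 (adjusted p = 0.0181 and 0.177). The carriers RBP5, RBP7 and FABP5 were not called, nor was the degrading enzyme CYP26B1, at -0.043, -0.022 and -0.56. A dimmer FABP5 probe set rose by 1.18 with the combination (adjusted p = 0.0453).

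Among 10 genes listed as responding to retinoic acid, RAI14 rose by 1.49 (SE 0.16, adjusted p = 5.04e-05), 0.81 (SE 0.16, adjusted p = 0.00562) and 0.84 (SE 0.16, adjusted p = 0.00382), with an interaction of -1.46 (adjusted p = 0.00290). It gave 893, 898, 889 and 798 in controls 1 to 4 and 1811 to 2939 with estradiol. TGM2, a transglutaminase, rose by 1.49 (SE 0.29, adjusted p = 0.00451) with tamoxifen and by 1.09 (SE 0.29, adjusted p = 0.0190) with the combination. With estradiol it stood at 0.45 (adjusted p = 0.271). Its dimmer probe set rose by 2.92 and 2.35 with tamoxifen and the combination. DLX5, a homeobox gene of endometrial glands, rose by 2.41 (SE 0.51, adjusted p = 0.00591) with the combination. It was not called with estradiol, at 1.23, or tamoxifen, at 1.39 (adjusted p = 0.0893 and 0.0820), nor in the interaction, at -0.21 (adjusted p = 0.893). RARRES2, which encodes the chemokine chemerin, fell by 1.08 (SE 0.22, adjusted p = 0.00453) with the combination. In all, 2 of these 10 were called higher and 2 lower with estradiol, beside 13.2% and 12.3% of all probe sets. With tamoxifen 2 and 0 were called, beside 7.14% and 6.17%. With the combination 3 and 1 were called, beside 8.05% and 7.79%. Such small counts were not tested. The estradiol calls besides RAI14, named after their values were seen, were LRATD1 at 1.07, RARRES2 at -0.70 and MEIS2 at -1.30 (adjusted p = 0.0311, 0.0278 and 0.0401). The next LRATD1 probe set, at 1.09, was not called (adjusted p = 0.0884).

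**Figure D5:**
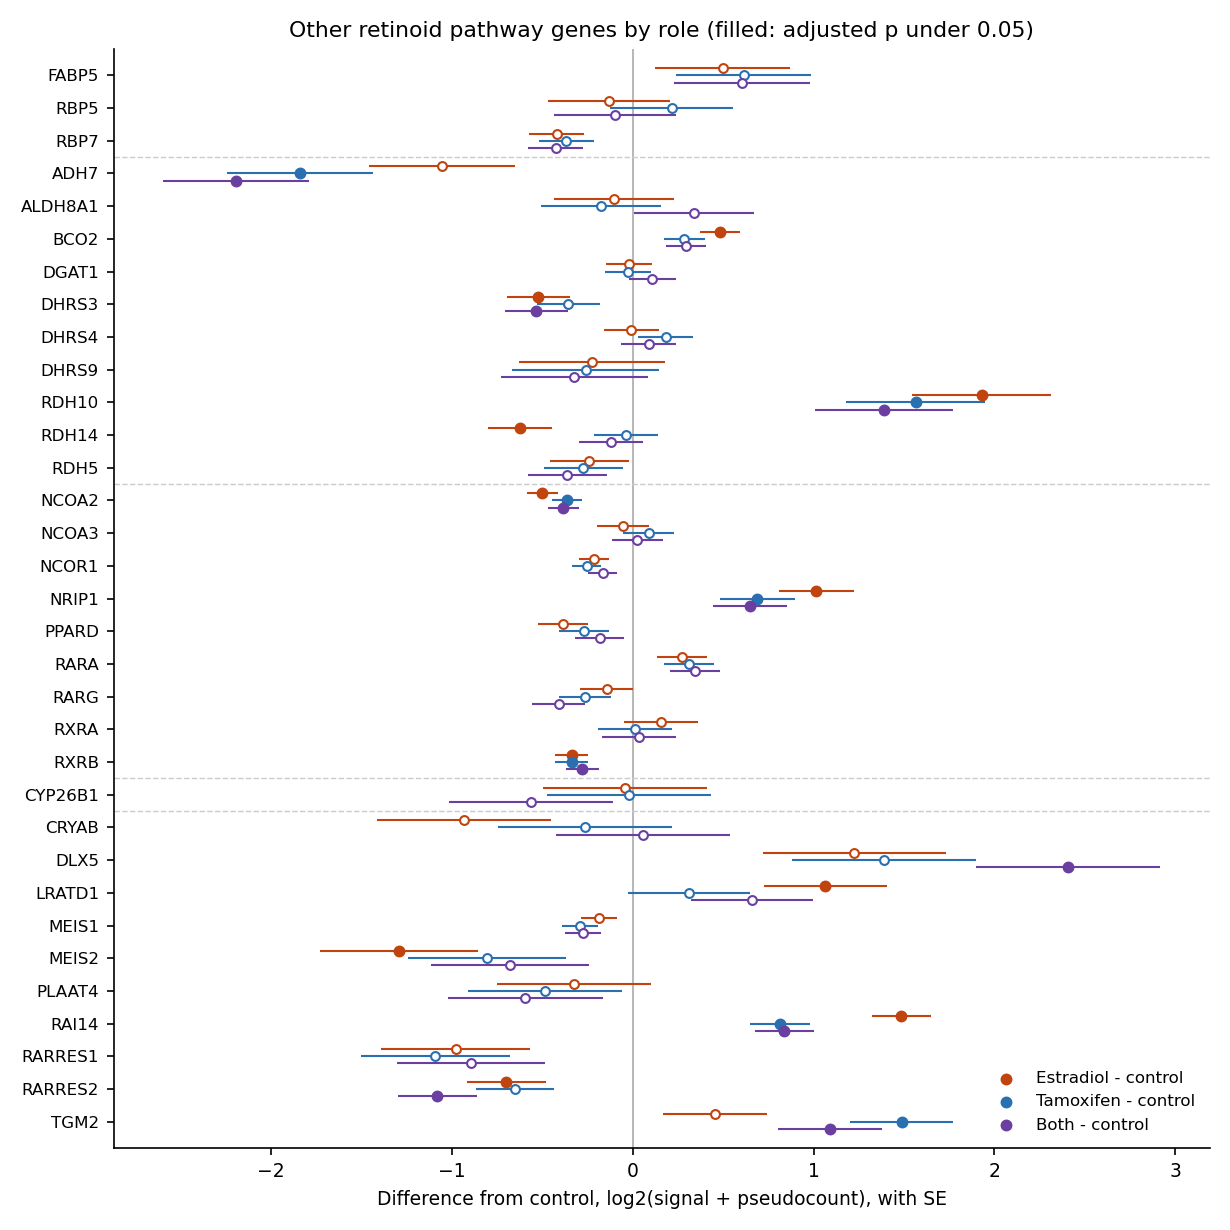
Difference from control on the log2 scale (x axis) with its SE for the 33 tested genes of the retinoid pathway list (rows, grouped by role from carriers down to genes listed as responding to retinoic acid), by treated arm; filled points have an adjusted p under 0.05. RDH10, NRIP1 and RAI14 are filled to the right of 0 and RXRB and NCOA2 to the left in all 3 arms.

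The genes with the pattern most like each member were found by the root mean square difference of standardized log2 values over the 16 arrays, where 0 is an identical pattern. For CRABP1 they were FCRL1, LOC703425 and GPC4 (0.35, 0.38 and 0.39). For CRABP2 they were BUD23, TRIB2 and SERPINE2 (0.39, 0.40 and 0.40). For RBP4 they were PLXDC1, GRTP1 and the neurofilament gene NEFH (0.41, 0.44 and 0.48). For STRA6 they were SMARCC1, SLAIN1 and TNFRSF21 (0.34, 0.40 and 0.40), and for ALDH1A3 they were SMAD5, SH2D4B and METTL18 (0.35, 0.44 and 0.46). The closest genes to ALDH1A2 (GPRIN3, at 0.52) and RARB (MTIF2, at 0.59) were farther. No member was among the 3 closest of another member.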

How the data were processed

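Each array has 52865 probe sets with 1 deposited intensity per probe set, on a linear scale. GCOS, Affymetrix Expression Console and MAS5 are the tools in the submitters' processing notes, which give no version or scaling target. After trimming 2% at both ends, the mean signal was 250.01 on each array, so the authors' scaling was kept; it ties every change to total signal, and dim probe sets stay noisy. Arms come from the titles.

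After removal of 99 control probe sets, values became log2(signal + 4.80), the 10th percentile of all signals, which understates changes of dim probe sets. The 40% with the lowest overall mean were then dropped whatever their arm. limma 3.58.1 in R 4.3.3 fitted 1 mean per arm over the 16 arrays (eBayes with trend, 12 residual degrees of freedom) and gave 7 comparisons. Adjusted p is Benjamini-Hochberg over the 31659 probe sets left. The fit was run on simulated arrays with independent noise and known changes in the estradiol arm only. That run held no shifts of cell types or outlying arrays, and it covered the estradiol comparison alone. A gene outside the members was followed through its brightest probe set. In the platform annotation 24956 probe sets have a single symbol, 361 several and 27449 none; all 8 annotated member symbols are in the RefSeq table for this species. No sequences were used here.

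The members, the lists and the tests were chosen with earlier results of these data known. The rule named every member probe set, up to 6 called genes of the pathway list with the smallest p per comparison, and the 3 most alike genes per tested member; RDH14, DHRS3, LRATD1 and MEIS2 fall outside it. Numbers in the titles are not said to pair animals. Deviations of same-numbered arrays from their arm means correlated between -0.27 and 0.095, which shows no pairing but cannot exclude one. Alternatives were 2 pseudocounts, no filter, quantile normalization, no variance trend, only the arms compared, a replicate block, leaving out each array, and leaving out both estradiol 4 and tamoxifen 1.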

Additional observations from a re-analysis of the deposited data

Results flagged for a closer look

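The change with tamoxifen differed with and without estradiol for both RBP4 probe sets, by the interaction of -2.33 on the brighter and -2.28 on the dimmer. Among 48 sets of 4 arrays, 3 held an array far from the others of its arm on the log2 scale, and chance gives about 1 in 20. Its gap to the nearest array took 0.846 of the arm's range for control 4 on the dimmer ALDH1A2 probe set, 0.975 for combination 4 on the brighter RARB probe set and 0.899 for tamoxifen 4 on the dimmer CYP26A1 probe set.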

How the results depend on the processing

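Of 15 called member results, 11 stayed past the threshold in every alternative run; the 4 others are CRABP1 and the brighter RBP4 probe set with estradiol and both RBP4 interactions, and none changed sign. Of 55 uncalled results, 8 passed in some alternative and 10 changed sign. The interaction count was 2, and 1 with no filter, 1 with no variance trend, 1 with the replicate block and 0 without both estradiol 4 and tamoxifen 1; it ran from 0 to 3 over single arrays left out, with 3 without tamoxifen 2. The cause was not tested. Over single arrays left out the count ran from 3 to 5 with estradiol, 4 to 5 with tamoxifen, 4 to 6 with the combination, and 0 to 1 where estradiol was set against the combination or tamoxifen. The replicate block left the counts at 5, 4, 4, 0, 0 and 0 in the comparisons between arms. The low signal of CYP26A1 limits what could be seen of it.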

Other observations

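In the RefSeq table of the cynomolgus assembly T2T-MFA8v1.1, the protein-coding neighbours of the members that were tested mostly gave no call against control. Most probe sets gave none either, with 25.5%, 13.3% and 15.8% of all called with estradiol, tamoxifen and the combination. ISG20L2, next to CRABP2, stood at 0.17, 0.051 and -0.064 with estradiol, tamoxifen and the combination (adjusted p = 0.367, 0.831 and 0.779). ISLR, next to STRA6, stood at -0.096, -0.24 and -0.21 (adjusted p = 0.833, 0.604 and 0.638). SKIC8, next to CRABP1, rose by 0.41 with estradiol and by 0.41 with tamoxifen and stood at 0.26 with the combination (adjusted p = 0.00433, 0.00930 and 0.0640), beside changes of 1.69, 2.67 and 3.55 for CRABP1. The neighbours of RBP4, FFAR4 and PDE6C, were not tested.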
